A study of Mus musculus with 26 samples.

Results

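The comparison described here sets the effect of a c-Myc inhibitor against the effect of alpha-amanitin on the RNA of 1-cell mouse embryos, gene by gene. For each gene, the log2 change under alpha-amanitin was subtracted from the log2 change under the c-Myc inhibitor, each measured against its own control embryos. A positive difference means that the RNA stood higher, relative to its controls, under the c-Myc inhibitor than under alpha-amanitin, and a difference of 1 is a 2-fold gap between the effects. The libraries were chosen by their labels and not by any measured value. They were the 22 embryo libraries among the 26 libraries of the study, and the remaining 4 libraries, from unfertilised MII oocytes, served only as a reference level. Of 55401 genes in the table, 15790 had enough counts to be tested.

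A newly fertilised mouse egg carries a stock of RNA made by the growing oocyte, most of which is destroyed as the embryo takes over control. The embryo's own RNA polymerase II (Pol II), the enzyme that makes messenger RNA, begins with a weak and largely unspecific wave of synthesis in the pronuclei. Alpha-amanitin, a mushroom toxin, binds Pol II and blocks synthesis of messenger RNA in general. The transcription factor c-Myc binds DNA as a pair with Max, with a preference for the E-box letters CACGTG, and its best known targets serve ribosome production, nucleotide and polyamine synthesis and cell growth.

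All embryos came from in vitro fertilisation of oocytes from superovulated 8-week-old B6D2F1 females with B6D2F1 sperm, and the labels give each of them an age of 10 h. Embryos of the first series were moved 2 h after the gametes were mixed into KSOM medium with 10058-F4, a thiazolidinone compound that keeps c-Myc from pairing with Max, for 10 h (7 libraries), and 7 libraries of control embryos belong to that series. The protocol names a further compound, MYCi975, but each treated title names 10058-F4, and no dose is stated in the sources used here. In the second series, 4 libraries came from embryos kept from 1 h after mixing in KSOM with 100 µg/ml alpha-amanitin for 10 h, and 4 from their untreated controls. Counted from mixing, these protocol times exceed the labelled age and differ between the series, so the age at collection is uncertain and may differ between them. The libraries are labelled as single-cell libraries of total RNA, no donor or batch is named, and p-values measure only the spread between libraries. Because each inhibitor was used in one series only, an effect of the inhibitor's identity cannot be told apart from differences between the series in age, handling or library quality.

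Library totals ran from 20566278 to 27266040 counts in the first series and from 5371602 to 31540627 in the second. The shallowest, alpha-amanitin replicate 3, had a median Spearman correlation of 0.777 across genes with the others of its group, which had 0.861 to 0.876. Libraries of the first series reached 0.930 to 0.945, and the spread between replicates, as edgeR's biological coefficient of variation, came to 0.555 there against 1.07 in the second series. Genes with a count numbered 15338 to 17518 per library in the first series, 12318 to 13634 in amanitin controls and 9497 to 21984 with alpha-amanitin. Oocyte and maternal-effect genes carried large counts in all groups, and all 57 listed members were detected in 3 groups and 55 in the amanitin controls. Of 22 markers of cumulus and granulosa cells, which surround the egg, Areg, Ereg and Tnfaip6 had no count and 11 stayed under 1 CPM (the usual read count scaled to a fixed library total) in each group. Their summed level was 94.5 to 188 CPM in c-Myc series controls, 109 to 133 with the c-Myc inhibitor, 125 to 186 in amanitin controls and 90.9 to 154 with alpha-amanitin, most of it from Nr5a2 and Cyp19a1. Of 24 sperm and spermatid transcripts, 6 (Acr, Gapdhs, Smcp, Tnp1, Tnp2 and Tssk6) had no count. Their sum without Odf2, a centrosomal gene also active in somatic cells, was 6.09 to 11.7, 9.64 to 19.1, 11.1 to 20.6 and 4.30 to 30.1 CPM in the same order of groups, and the part of these markers in the differences was not tested.

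Promoter letters are shown for 4 genes to which the results return, each as the 250 bases just before the RefSeq start site, read 5′ to 3′ on the gene's strand (RefSeq, GRCm38.p6). Capitals in the first pair mark the endoplasmic reticulum stress element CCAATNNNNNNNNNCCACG on either strand, and capitals in the second pair mark the E-box CACGTG, which reads the same on both strands. Hspa5 and Hsp90b1 encode chaperones of the endoplasmic reticulum and had negative differences. Nptn, a cell adhesion protein, and Scap, the escort of the sterol-sensing SREBP factors, were called with positive differences. All 4 were picked for display after their values were seen.
Hspa5 (chr2:34771840-34772089, plus strand): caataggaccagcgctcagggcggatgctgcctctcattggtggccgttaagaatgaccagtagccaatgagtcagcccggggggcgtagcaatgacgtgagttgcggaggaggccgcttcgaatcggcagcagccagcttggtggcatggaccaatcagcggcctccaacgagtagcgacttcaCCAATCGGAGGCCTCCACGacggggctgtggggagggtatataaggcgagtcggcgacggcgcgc
Hsp90b1 (chr10:86705445-86705694, minus strand): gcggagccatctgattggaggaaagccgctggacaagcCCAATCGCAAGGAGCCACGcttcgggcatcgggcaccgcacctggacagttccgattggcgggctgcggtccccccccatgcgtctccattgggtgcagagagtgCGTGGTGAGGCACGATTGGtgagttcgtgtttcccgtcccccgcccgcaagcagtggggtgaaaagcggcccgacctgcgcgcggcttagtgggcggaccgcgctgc
Nptn (chr9:58581990-58582239, plus strand): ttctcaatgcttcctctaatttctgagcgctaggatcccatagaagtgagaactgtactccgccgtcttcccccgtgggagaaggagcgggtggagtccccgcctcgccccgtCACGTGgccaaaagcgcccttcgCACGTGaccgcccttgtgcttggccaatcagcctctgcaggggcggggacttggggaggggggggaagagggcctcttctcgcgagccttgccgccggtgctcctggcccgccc
Scap (chr9:110333106-110333355, plus strand): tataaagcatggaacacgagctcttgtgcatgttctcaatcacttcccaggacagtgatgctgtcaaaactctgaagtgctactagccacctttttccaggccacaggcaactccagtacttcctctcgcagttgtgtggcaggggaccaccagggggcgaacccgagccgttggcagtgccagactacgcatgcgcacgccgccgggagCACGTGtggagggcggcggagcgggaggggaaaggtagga

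The effects of the inhibitors differed for 165 genes at an adjusted p below 0.05. Of the genes tested, 107 (0.678%) had a positive difference and 58 (0.367%) a negative one, called by edgeR's quasi-likelihood test with Benjamini-Hochberg adjustment over all 15790 genes. At an unadjusted p below 0.05 there were 1069 positive and 1659 negative differences in the same test. These counts over all genes are the background for the list counts below. The 2 sets of calls were of different kinds. The 107 positive calls were abundant transcripts with a median mean level of 175 CPM, against 8.67 CPM for all genes tested, and 105 were protein coding. The 58 negative calls had a median mean level of 3.25 CPM, and 37 of them had a group of libraries without a single count, beside 1983 of all 15790 genes. Other tools gave sets of other sizes. DESeq2 called 413 positive and 629 negative differences, and limma voom with weights per group 15 and 0 (1218 genes at an unadjusted p below 0.05), so that by the latter no negative difference and 1 member of any list described below, an oocyte gene, was called. Leaving out 1 library at a time moved the positive count by over 1.5 times without c-Myc inhibitor replicate 7 (67) or alpha-amanitin replicate 3 (167). The negative count moved that far in 15 of 22 such fits, to 94 to 113 without any 1 alpha-amanitin library and to 25 to 38 without 11 of the 14 libraries of the c-Myc series. Without 1 amanitin control it was 51 to 82, but only 23 to 29 of the 58 were among those calls.

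In the same fit, the c-Myc inhibitor alone raised 234 genes (1.48%) and lowered 86 (0.545%), and alpha-amanitin alone raised 52 (0.329%) and lowered 30 (0.19%). Of the 107 positive differences, 79 were also called for the c-Myc inhibitor alone, 12 for alpha-amanitin alone, 4 for both and 12 for neither. The 4 called in both effects were Ccnyl1, Smg8, Oas1d and Lrig2, each raised under the c-Myc inhibitor and lowered under alpha-amanitin. The median of the 107 was 1.04 on the log2 scale under the c-Myc inhibitor and -0.30 under alpha-amanitin, and the c-Myc part was the larger one in 80 of them. With-inhibitor and control libraries did not overlap for 81 of the 107 in the c-Myc series, beside 3.26% of all genes tested, and for 22 in the amanitin series, beside 2.37%. These components come from the contrast that chose the genes and only describe it.

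Calls within either series depended on which libraries shared the estimate of spread. The amanitin series fitted alone gave 0 calls in each direction by edgeR among 11210 genes, with 294 genes at an unadjusted p below 0.05, whereas DESeq2 on the 22 libraries gave 821 and 443. The c-Myc series fitted alone gave 887 raised and 531 lowered genes. In the fit of 22 libraries, leaving out alpha-amanitin replicate 3 gave 353 and 166 calls for the c-Myc inhibitor, and leaving out c-Myc inhibitor replicate 5 gave 54 lowered ones. The amanitin counts moved by over 1.5 times in 18 (raised) and 17 (lowered) of 22 such fits, with ranges of 21 to 104 and 12 to 75.

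**Figure D1:**
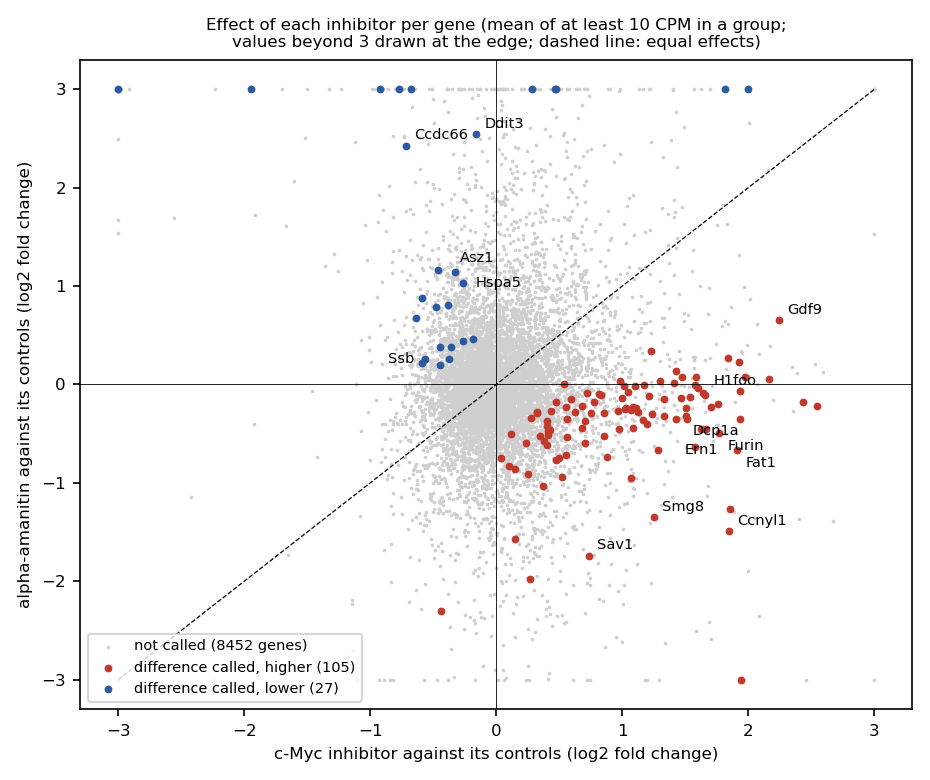
Change under the c-Myc inhibitor (log2, horizontal axis) and under alpha-amanitin (log2, vertical axis), each against its own controls, for tested genes whose mean reached 10 CPM in some group, with values beyond 3 drawn at the edge and called differences in colour. The 105 positive calls plotted (red) lie below the dashed line of equal effects, all but 1 at positive c-Myc inhibitor values, and the 27 negative calls (blue) lie above it, some at the upper edge.

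The largest positive differences among genes with at least 10 CPM in a group included those of Rtn4r, Ccnyl1, Lsr, Dse, Smg8, Fat1, Sav1, Atg16l1 and Furin, with values from 2.26 for Furin to 6.50 for Rtn4r, whose size is not firm because its alpha-amanitin levels were close to 0. Ccnyl1, Fat1, Furin and Rtn4r were called under every alternative that could test them.

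Ccnyl1, which encodes a cyclin partner of CDK14 and CDK16 (GRCm38 chr1:64690455-64725644), was measured at 42.3 to 77.3 CPM in the 7 c-Myc series controls (median 49.4) and at 184 to 230 CPM with the c-Myc inhibitor (median 205). Amanitin controls held 67.8, 49.6, 50.4 and 51.2 CPM, and alpha-amanitin embryos 31.5, 15.9, 21.0 and 9.48 CPM. Neither pair of groups overlapped, and the groups moved apart in opposite directions. The difference was 3.34 (SE 0.33, edgeR adjusted p = 3.2e-07), from a rise of 1.84 under the c-Myc inhibitor and a fall of 1.49 under alpha-amanitin.

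Fat1, a giant protocadherin (chr8:44935447-45052257), held 178 to 232 CPM in c-Myc series controls (median 197) and 575 to 949 CPM with the inhibitor (median 713). The amanitin series read 240, 271, 185 and 220 CPM in controls and 143, 225, 96.1 and 111 CPM in treated embryos. The c-Myc groups stood fully apart, while alpha-amanitin replicate 2 lay inside the range of its controls. The difference was 2.58 (SE 0.24, adjusted p = 1.35e-07), of which 1.91 came from the c-Myc series. Furin, the protease that trims many secreted precursors (chr7:80388585-80405436), showed the same division, with medians of 133 and 465 CPM in the c-Myc series and a highest control of 171 below the lowest treated library of 412. Amanitin controls held 161, 156, 111 and 160 CPM and treated embryos 113, 122, 69.7 and 112, so that these overlapped, and its difference was 2.26 (SE 0.21, adjusted p = 1.35e-07).

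Smg8, a regulator of the SMG1 kinase in nonsense-mediated decay (chr11:87077732-87086774), had medians of 50.7 CPM in controls (27.5 to 57.4) and 105 CPM with the c-Myc inhibitor (72.9 to 159). Its amanitin controls held 79.1, 55.2, 57.5 and 47.2 CPM, and all 4 treated libraries lay below them at 31.0, 33.2, 18.5 and 10.7 CPM. The groups separated in both series, in opposite directions, with a difference of 2.60 (SE 0.40, adjusted p = 0.000404). Rtn4r, the Nogo receptor of neurons (chr16:18127642-18152408), had the largest difference at lower levels: medians of 5.54 CPM in c-Myc controls (1.91 to 8.38) and 19.0 CPM in treated embryos (13.3 to 24.9). In the amanitin series it read 18.4, 13.5, 14.6 and 4.05 CPM in controls and 0.344, 1.61, 0 and 0.0462 CPM with alpha-amanitin. Its difference of 6.50 (SE 1.08, adjusted p = 0.000929) therefore came mostly from alpha-amanitin. The treated values of 0 and 0.0462 CPM lie below the level of 3 counts in their own libraries (0.558 and 0.147 CPM). The value of 0.344 CPM lies above that level in its library (0.0951 CPM).

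Sav1, a scaffold of the Hippo kinase pathway, also differed mostly through alpha-amanitin. It held 71.2, 52.7, 24.97 and 37.0 CPM in amanitin controls and 20.6, 19.9, 3.08 and 11.4 CPM in treated embryos, with no overlap. The c-Myc series moved less, from a median of 44.0 (35.2 to 50.1) to 80.4 CPM (47.0 to 83.1), with overlap, and the difference was 2.48 (SE 0.48, adjusted p = 0.00586).

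Dse, a dermatan sulfate epimerase, showed the opposite division. It rose from 10.1 to 27.8 CPM in c-Myc controls (median 24.7) to 97.0 to 154 CPM with the inhibitor (median 124). The amanitin series overlapped, with 11.4, 21.5, 1.98 and 35.6 CPM in controls and 18.3, 21.1, 8.33 and 14.1 CPM in treated embryos. The difference was 2.61 (SE 0.58, adjusted p = 0.0213), and the amanitin effect was -0.17 with a 95% interval of -1.10 to 0.75. Atg16l1, a core autophagy protein, followed the same division with a difference of 2.28 (SE 0.41, adjusted p = 0.00235) and an amanitin effect of -0.35 that was not called. Lsr, a lipoprotein receptor of tricellular junctions, had a difference of 3.12 (SE 0.55), with 13.0 to 26.4 CPM in c-Myc controls and 52.3 to 82.9 CPM with the inhibitor. The Dse call was lost without amanitin control replicate 4, the control with its highest value (adjusted p = 0.0637).

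**Figure D2:**
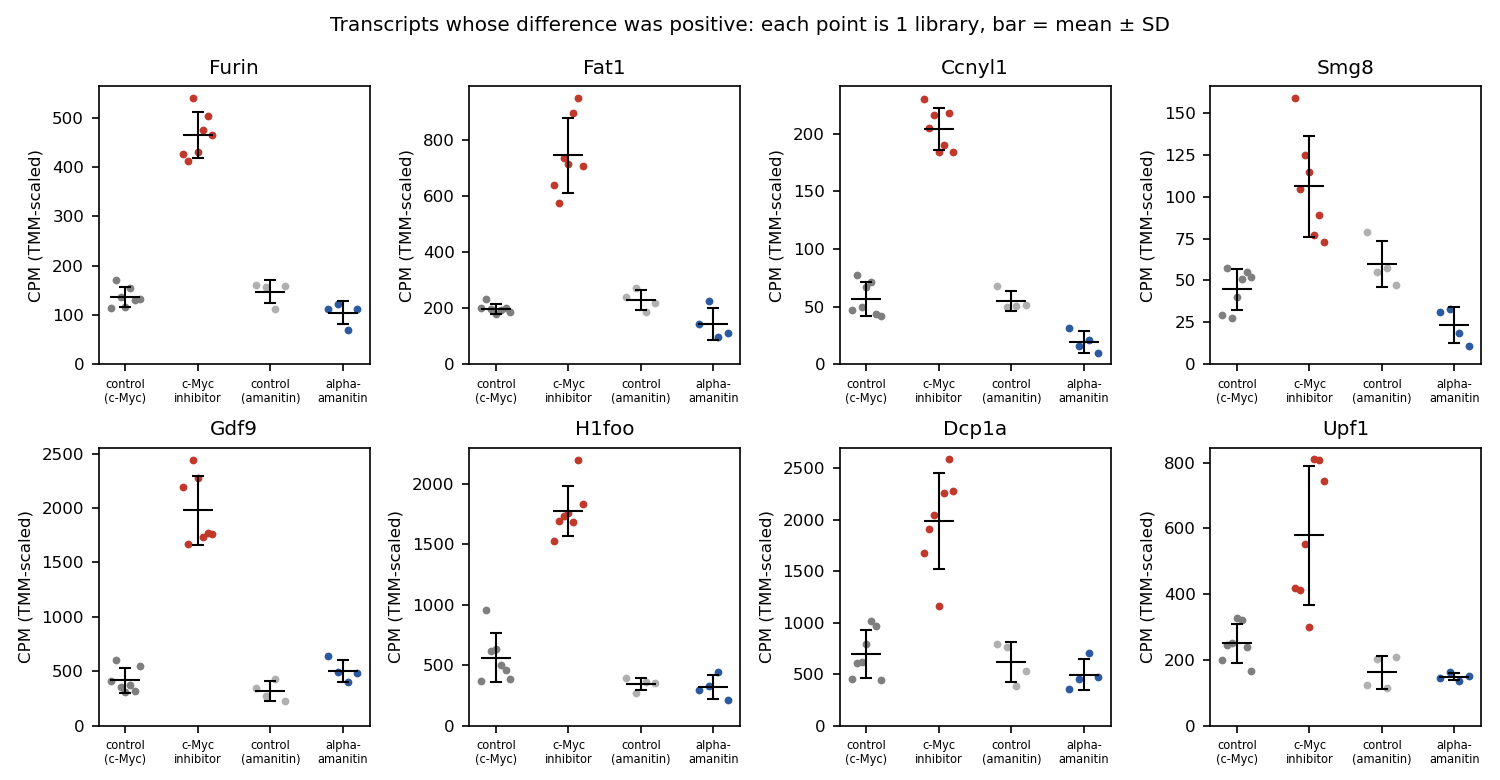
Level of genes with positive differences in each of the 22 libraries (TMM-scaled CPM, linear axis from 0), by group, with 1 point per library and a bar for the mean ± SD. The c-Myc inhibitor group has the highest mean in each panel, and the amanitin groups overlap for Fat1 and Furin and separate downward for Ccnyl1 and Smg8.

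Oocyte and maternal-effect genes, the RNA that the egg brings along, held 7 positive calls and 0 negative ones among 55 tested (edgeR; 12 positive and 5 negative at an unadjusted p below 0.05, and 8 and 0 by DESeq2). Of all genes tested, edgeR called 0.678% positive and 0.367% negative. The median difference of the list was -0.09, with quartiles of -0.36 and 0.38, beside a median of -0.03 for all genes tested. The 95% interval lay within 1 log2 unit of 0 for 30 of the 55. Under the c-Myc inhibitor alone 8 members were raised and 0 lowered, and under alpha-amanitin 0 were raised and 1 lowered. The list was drawn up with earlier results of these data known, and its count is not independent evidence of a direction. The 7 were Gdf9, H1foo, Zar1, Astl, Plat, Oas1d and Sall4.

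Gdf9, the oocyte growth factor that instructs cumulus cells (chr11:53431023-53437904), held 314 to 606 CPM in c-Myc controls (median 372) and 1673 to 2445 CPM with the inhibitor (median 1772). Amanitin controls read 349, 275, 432 and 225 CPM and alpha-amanitin embryos 642, 490, 398 and 481 CPM. Treated libraries stood above controls with no overlap in the c-Myc series, and in the amanitin series 1 treated library lay inside the controls' range. Both fitted effects were positive, 2.25 and 0.65, of which the second was not called (adjusted p = 0.104), and the difference was 1.59 (SE 0.25, adjusted p = 0.000493). Gdf9 is thus a case in which a positive difference joined effects of the same sign. The MII oocytes held a mean of 2126 CPM.

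H1foo, the linker histone of oocytes (chr6:115944938-115950236), held a median of 499 CPM in c-Myc controls (372 to 952) and 1735 CPM with the inhibitor (1527 to 2198). Amanitin controls held 396, 270, 359 and 353 CPM and treated embryos 298, 331, 444 and 209 CPM, with overlap. The difference was 1.77 (SE 0.27, adjusted p = 0.000404), with an amanitin effect of -0.11. Zar1, which stores maternal messages in the oocyte, and Astl, the ovastacin protease that hardens the zona pellucida, had differences of 1.03 (SE 0.23) and 1.51 (SE 0.35) and amanitin effects of -0.01 and 0.08. Plat, the tissue plasminogen activator kept silent in oocytes until maturation, had 0.90 (SE 0.22), and Sall4, a zinc finger factor of early embryos, 0.65 (SE 0.16).

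Oas1d, an oocyte member of the oligoadenylate synthetase family, was the 1 oocyte gene called in both effects. It rose from 512 to 600 CPM (median 580) to 599 to 807 CPM (median 721) with the c-Myc inhibitor. Amanitin controls read 589, 605, 521 and 699 CPM and treated embryos 472, 419, 465 and 322 CPM. The amanitin groups did not overlap, the c-Myc groups overlapped at their edges, and the difference was 0.87 (SE 0.15, adjusted p = 0.00215). Oas1d has near-identical neighbours in its gene cluster, so reads could be split among copies.

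Several prominent oocyte genes were not called. Bub1b, the spindle checkpoint kinase, had a median of 275 CPM in c-Myc controls (198 to 503) and 1121 CPM with the inhibitor (870 to 1385), and amanitin libraries of 116, 103, 146 and 188 against 206, 167, 333 and 162 CPM. Its difference was 1.17 (SE 0.32, adjusted p = 0.0619). Mos, the kinase that holds the egg at metaphase, had 3.42 (SE 1.10, adjusted p = 0.109), with 2 of 4 alpha-amanitin libraries at 0. Nlrp14 had -1.24 (SE 0.38, adjusted p = 0.0971) and Bmp15, the partner of Gdf9, -0.42 (SE 0.15, adjusted p = 0.154). Narrow intervals near 0 were found for Btg4, an adaptor of maternal mRNA deadenylation, with 0.15 (95% interval -0.08 to 0.37).

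The machinery that degrades maternal mRNA held 3 positive calls and 0 negative ones among 38 tested by edgeR (6 and 3 at an unadjusted p below 0.05, and 4 and 0 by DESeq2), with a median of 0.00. The edgeR shares over all genes tested were 0.678% and 0.367%. Dcp1a, a decapping co-activator (chr14:30479535-30527063), had a median of 615 CPM in c-Myc controls (448 to 1016) and 2043 CPM with the inhibitor (1165 to 2588). In the amanitin series it held 795, 761, 389 and 534 CPM in controls and 354, 451, 703 and 474 CPM in treated embryos, which overlapped. Its difference was 1.83 (SE 0.32, adjusted p = 0.00215). Upf1, the helicase of nonsense-mediated decay, had 1.33 (SE 0.32, adjusted p = 0.0359), and Cnot8, a deadenylase of the CCR4-NOT complex, 0.77 (SE 0.18, adjusted p = 0.0263). Dcp1a was called in all 22 fits that left out 1 library, Cnot8 in 17 (highest adjusted p = 0.0637) and Upf1 in 10 (highest adjusted p = 0.0749).

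Set against the MII oocytes, the positive calls had a median near the oocyte level with the c-Myc inhibitor and below it in the other groups. This describes the median of the set and not each gene. Among the 107, 105 had at least 10 CPM in oocytes. Their median log2 ratio to the oocyte mean, with 0.5 CPM added to each level, was -1.09 in c-Myc controls, 0.02 with the c-Myc inhibitor, -0.96 in amanitin controls and -1.35 with alpha-amanitin. With the c-Myc inhibitor 102 of the 105 (97.1%) lay within 2-fold of the oocyte, against 44.8%, 49.5% and 37.1% in the other groups in the same order. For the 7807 tested genes with that oocyte level, the medians were -0.09, -0.08, -0.08 and -0.12, and 87.0%, 91.1%, 84.3% and 85.4% lay within 2-fold. The genes were called on these same embryo levels, which sets the order of the embryo groups, whereas the oocyte libraries took no part in the call. The oocyte mean was above both control means for 84 of the 107 (78.5%), beside 36.7% of all genes tested.

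The c-Myc inhibitor group was the highest of the 4 means for 96 of the 107 positive calls (89.7%), beside 25.3% of all genes tested, and the alpha-amanitin group the lowest for 89 (83.2%), beside 30.0%. Among the 58 negative calls the alpha-amanitin group was highest for 42 (72.4%), beside 27.6% of all genes tested, and the amanitin controls lowest for 45 (77.6%), beside 33.2%. These shares follow in part from the sign of the contrast and are given as a description.

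**Figure D3:**
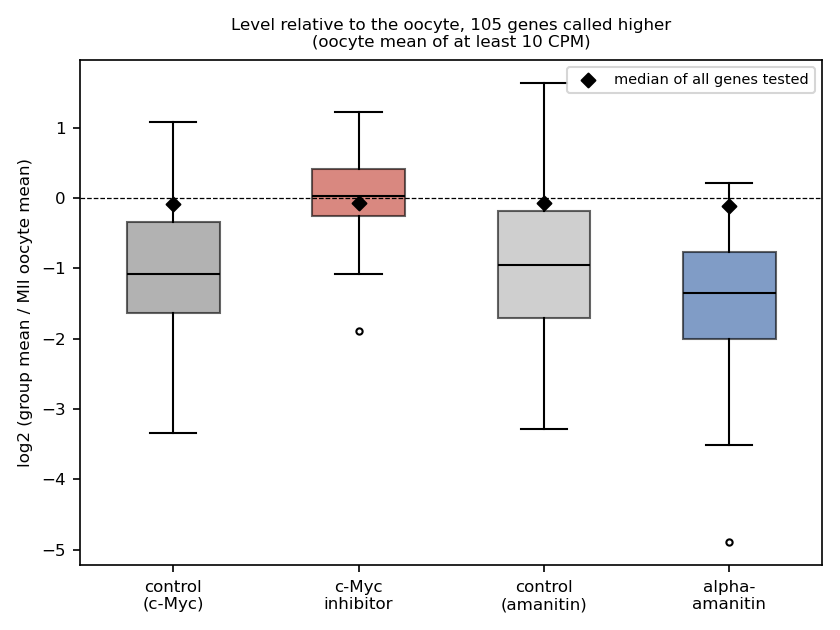
Log2 ratio of each embryo group's mean level to the MII oocyte mean (0.5 CPM added), as boxes (median, quartiles, whiskers) for the 105 positive calls and as diamonds (median) for the 7807 tested genes with at least 10 CPM in oocytes. The positive calls have a median of 0.02 with the c-Myc inhibitor and medians near or below -1 in the other 3 groups, while the diamonds sit near 0 in each group.

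Genes of the unfolded protein and integrated stress responses, which sense misfolded protein in the endoplasmic reticulum and shortage of amino acids, were the 1 list with called members in both directions. Of 43 tested, 4 had positive and 3 negative differences by edgeR, beside 0.678% and 0.367% of all genes tested. At an unadjusted p below 0.05 the list held 11 and 5, and by DESeq2 5 and 5. The median was 0.44, and 26 of the 43 lay above 0, beside a median of -0.03 and 7695 of 15790 for all genes tested. The positive ones were sensors and a transporter, Ern1, Eif2ak1, Eif2ak4 and Slc7a11, and the negative ones the effectors Ddit3, Hspa5 and Herpud1.

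Ern1, which encodes the IRE1 sensor of the endoplasmic reticulum (chr11:106394650-106487852), held 615 to 1028 CPM in c-Myc controls (median 859) and 1807 to 3338 CPM with the inhibitor (median 2504). Amanitin controls held 1009, 809, 590 and 960 CPM and treated embryos 550, 613, 707 and 598 CPM. The c-Myc groups did not overlap and the amanitin groups did, and the difference was 2.07 (SE 0.23, adjusted p = 1.82e-06). Eif2ak1, a haem-sensing kinase of the translation factor eIF2, had 1.35 (SE 0.24, adjusted p = 0.00215). Slc7a11, the cystine importer that also stands in the list of thiol and peroxide defence, had 0.95 (SE 0.21, adjusted p = 0.0213). Both came mostly from the c-Myc series, with amanitin effects of -0.24 and -0.18, and the Slc7a11 call was lost without amanitin control replicate 4 (adjusted p = 0.0564).

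Eif2ak4, the amino-acid sensor GCN2, differed through alpha-amanitin. It was 119, 145, 124 and 131 CPM in amanitin controls and 107, 63.4, 57.6 and 64.6 CPM with alpha-amanitin, with no overlap. The c-Myc series read 93.0 to 157 and 115 to 153 CPM, wholly overlapping, and the difference was 0.93 (SE 0.23, adjusted p = 0.0429).

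Ddit3, the stress-induced factor CHOP (chr10:127290774-127296288), gave the most clearly measured negative difference of the list. It held 20.3 to 49.95 CPM in c-Myc controls (median 32.6) and 24.9 to 41.4 CPM with the inhibitor (median 30.5). Amanitin controls held 4.36, 8.22, 12.9 and 19.97 CPM, and alpha-amanitin embryos 47.5, 48.7, 72.8 and 96.2 CPM. The c-Myc groups overlapped, the amanitin groups stood apart, and all 4 amanitin controls lay below every library of the c-Myc series. The difference was -2.70 (SE 0.49, adjusted p = 0.00259), made of 2.54 under alpha-amanitin and -0.16 under the c-Myc inhibitor.

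Hspa5, the chaperone BiP whose promoter is printed above (gene chr2:34771970-34777547), held 105 to 221 CPM in c-Myc controls (median 158) and 103 to 170 CPM with the inhibitor (median 143). Amanitin controls held 63.9, 104, 117 and 103 CPM, and alpha-amanitin embryos 208, 166, 155 and 263 CPM. As with Ddit3, only the amanitin groups stood apart, and 3 of their 4 controls lay below the c-Myc control range. The difference was -1.29 (SE 0.29, adjusted p = 0.022), with 1.03 under alpha-amanitin and -0.27 under the c-Myc inhibitor. The call was lost without amanitin control replicate 1, the control with the lowest value (adjusted p = 0.0529).

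Hsp90b1, the chaperone GRP94, had a mean of 339 ± 57.6 CPM (SD, n = 7) in c-Myc controls and 239 ± 48.7 (n = 7) with the inhibitor. The amanitin means were 287 ± 44.7 (n = 4) in controls and 394 ± 144 (n = 4) in treated embryos. Its difference of -0.96 (SE 0.26) missed the threshold (adjusted p = 0.0642). Herpud1, a component of endoplasmic reticulum protein disposal, was called from very few counts: it was 0 in every library with the c-Myc inhibitor and every amanitin control, a mean of 0.553 CPM in c-Myc controls and 3.82, 1.46, 0 and 0 CPM with alpha-amanitin. Its amanitin mean was at least 33.0-fold higher than the level that 3 counts over the 4 controls would give.

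Other members of the pathway had values without a call. Atf4, the transcription factor upstream of Ddit3, had a difference of -1.05 (SE 0.53, adjusted p = 0.306), with amanitin means of 135 ± 28.3 CPM in controls and 271 ± 174 in treated embryos. Pdia6, Creld2, Dnajc3 and Atf6, folding factors and a sensor of the same response, had differences of 1.36, 0.66, 0.61 and 1.40, opposite in sign to Hspa5 and Hsp90b1, with adjusted p from 0.104 to 0.251. The stress element printed above for Hspa5 and Hsp90b1 was also found in the windows of Pdia6, Creld2 and Dnajc3.

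**Figure D4:**
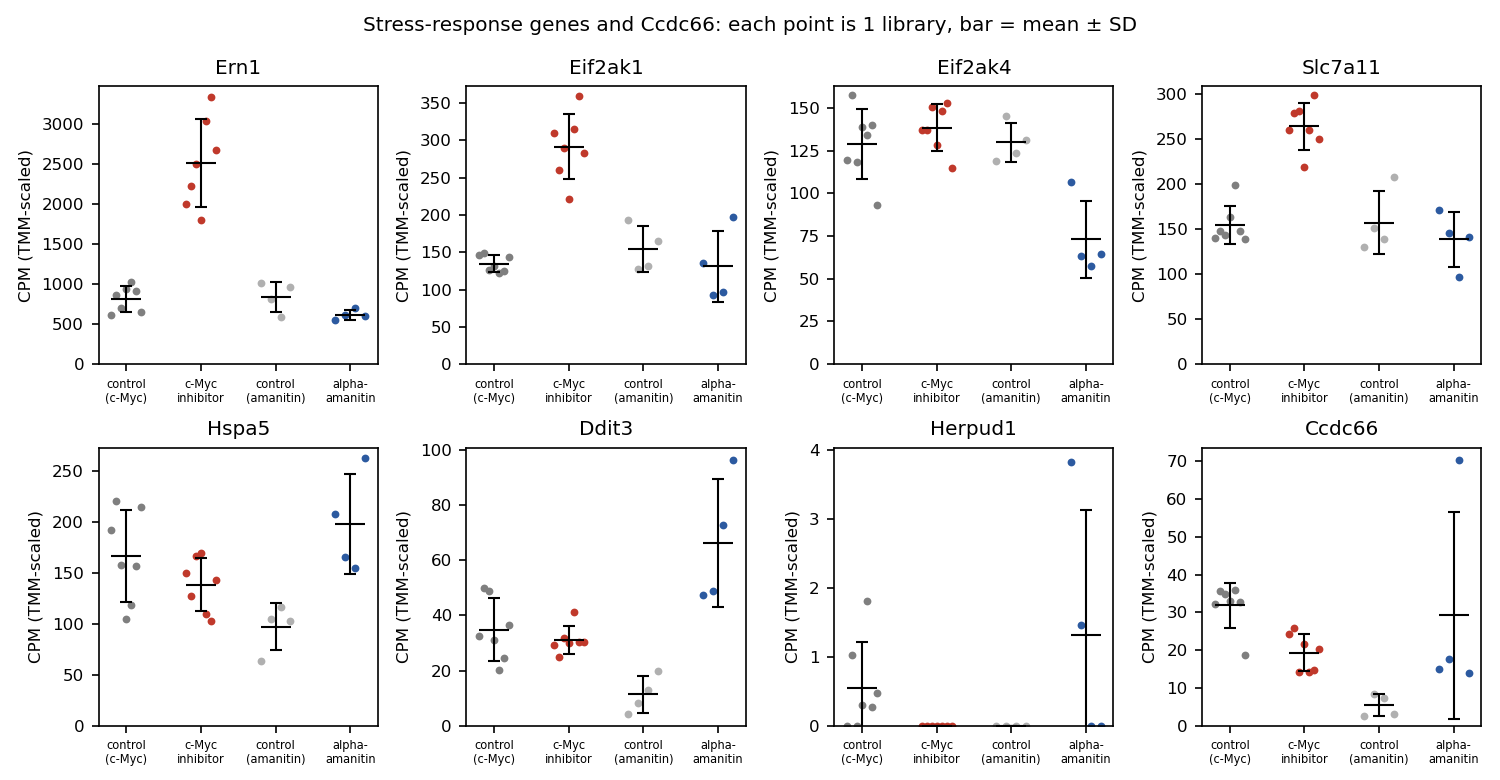
Level of stress response genes and Ccdc66 in each of the 22 libraries (TMM-scaled CPM, linear axis from 0), by group, with 1 point per library and a bar for the mean ± SD. Ern1 is highest with the c-Myc inhibitor (1807 to 3338 CPM), while Ddit3 and Hspa5 have their highest mean with alpha-amanitin and their lowest in the amanitin controls.

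Among the 58 negative differences, 36 had amanitin controls without any count. Their alpha-amanitin means were low, with a median of 4.53 and a maximum of 17.3 CPM, and their c-Myc controls had a median of 1.84 CPM, so fitted log2 values have no firm size there. Requiring a count in at least 2 libraries of each group, a filter added after the data were seen, gave 25 negative and 101 positive calls. Of these, 18 and 101 were among the 58 and 107 of the main fit. Amanitin controls had fewer genes with a count than libraries of the c-Myc series, and the part of detection in the negative calls was not tested. Mgat4b, a glycosyltransferase that branches N-glycans (chr11:50210890-50235103), was 0 in all 4 amanitin controls and 2.60, 4.10, 11.8 and 7.63 CPM with alpha-amanitin, at least 163-fold above the level of 3 counts over the controls. It also rose under the c-Myc inhibitor, from 1.66 to 10.0 CPM (median 5.70) to 16.6 to 32.9 CPM (median 23.2), so the negative difference joined 2 effects of the same sign. The amanitin controls again lay below all control libraries of the c-Myc series.

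Negative differences with counts in every group were smaller and better measured. Ccdc66, a centriolar satellite protein, held 18.6 to 35.9 CPM in c-Myc controls (median 32.9) and 14.3 to 25.9 CPM with the inhibitor (median 20.2). Amanitin controls read 2.64, 8.37, 7.44 and 3.08 CPM and treated embryos 15.0, 17.8, 70.2 and 13.9 CPM. All amanitin controls lay below all other libraries, and the highest value is from the shallow alpha-amanitin replicate 3. The difference was -3.15 (SE 0.63, adjusted p = 0.00851).

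Cpsf3, the nuclease that cleaves pre-mRNA at the poly(A) site (chr12:21285391-21315056), held a median of 66.2 CPM in c-Myc controls (31.6 to 73.2) and 44.0 CPM with the inhibitor (28.3 to 62.6). It held 26.6, 27.6, 40.0 and 39.9 CPM in amanitin controls and 79.9, 67.2, 75.3 and 78.4 CPM with alpha-amanitin, where the groups did not overlap. The difference was -1.62 (SE 0.36, adjusted p = 0.0213). Asz1, a germ-cell protein of the piRNA pathway, had -1.47 (SE 0.32, adjusted p = 0.0203) with separated amanitin groups, 25.96, 29.3, 27.5 and 45.0 against 55.6, 53.2, 92.7 and 80.9 CPM.

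Other negative differences included Ssb and Terf1, which fell under the c-Myc inhibitor. Ssb, the La protein that binds the ends of Pol III transcripts, held 1316 to 1531 CPM in c-Myc controls (median 1408) and 730 to 1136 CPM with the inhibitor (median 1005), with no overlap. Amanitin libraries read 1418, 1131, 1232 and 1381 in controls and 1120, 1115, 2182 and 1761 CPM in treated embryos, and the difference was -0.82 (SE 0.20, adjusted p = 0.0357). Terf1, a protein that binds telomere repeats, fell from 167 to 196 to 106 to 134 CPM and had -0.81 (SE 0.19, adjusted p = 0.0264). Sept7, a septin, had -1.31 (SE 0.33, adjusted p = 0.0431), from effects of -0.64 under the c-Myc inhibitor and 0.68 under alpha-amanitin, neither of them called. Of the 22 fits that left out 1 library, Terf1 was called in 15, Ssb in 11 and Sept7 in 6, with highest adjusted p of 0.0551, 0.0752 and 0.0803.

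Hexim1 was the 1 called member among 61 genes of Pol II and the general transcription factors, beside 0.367% of all genes called negative. It encodes the inhibitor of P-TEFb, the kinase that releases paused Pol II (chr11:103116231-103119725). All 7 c-Myc controls held counts, 1.67 to 10.0 CPM (median 3.19), and all 7 libraries with the c-Myc inhibitor held none. The control mean was 241-fold above the level of 3 counts over those 7 libraries, a limit from counting alone that leaves out loss of RNA in library preparation. Amanitin controls were 0 in all 4 libraries, and 1 of 4 alpha-amanitin libraries held 0.537 CPM. The difference was called (adjusted p = 0.0175) and had an adjusted p of 1 when alpha-amanitin replicate 2, the only treated library with a count, was left out. Polr2a, the largest Pol II subunit and the target of alpha-amanitin, had a difference of -0.29 (95% interval -1.19 to 0.62). Eif5, a GTPase activator in translation initiation, was the 1 call among 48 translation factors, with -0.71 (SE 0.16, adjusted p = 0.0213).

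Some genes had effects of the same sign under both inhibitors, and others of opposite sign. Of all 15790 genes tested, 1527 had an unadjusted p below 0.05 for the c-Myc inhibitor and 3046 for alpha-amanitin. At that threshold in each effect there were 342 genes, of which 91 were higher under both and 95 lower under both. Another 82 were higher under the c-Myc inhibitor and lower under alpha-amanitin, and 74 the reverse. Whether 342 exceeds the overlap of unrelated effects was not tested. Called in both effects were 11 genes. Tubb6, a beta tubulin, held 129 to 226 CPM in c-Myc controls (median 163) and 186 to 348 CPM with the inhibitor (median 279), and 111, 131, 84.6 and 79.4 against 263, 212, 216 and 214 CPM in the amanitin series. It rose in both, by 0.71 and 1.16, and the difference was -0.45 with a 95% interval of -0.91 to 0.01. Prpf8, the core spliceosome protein, rose by 0.64 and 1.02, with a difference of -0.38 (95% interval -0.87 to 0.11). Mknk1, a kinase of the cap-binding factor eIF4E, and Atp13a1, a P5-type ATPase of the endoplasmic reticulum, rose in both with differences of -0.35 (-1.20 to 0.50) and -0.42 (-1.23 to 0.38).

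Among genes lower under both, abundant transcripts gave narrow intervals. Spry4, a feedback inhibitor of growth factor signalling, held 1173 to 1634 CPM in c-Myc controls (median 1305) and 933 to 1189 with the inhibitor (median 1043), and 2097, 2067, 1755 and 2039 against 1567, 1473, 1124 and 1552 CPM in the amanitin series. It fell by 0.38 and 0.48, both called, and the difference was 0.10 (95% interval -0.19 to 0.38). Tiam1, an activator of the GTPase Rac, had effects of -0.27 and -0.42, of which only the second was called, and a difference of 0.15 (-0.10 to 0.40). Lmo7, Peak1 and the corepressor Ncor1 had differences of 0.08, 0.13 and 0.18 with intervals inside -0.19 to 0.51. For these genes the intervals bound the gap between the effects, but they are not adjusted for how the genes were chosen. The genes named in this paragraph and the one before were picked for effects of the same sign, which favours a small difference.

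Genes of the 2-cell stage and of minor genome activation, which the embryo itself begins to transcribe, held 0 calls among 37 tested by edgeR. The called shares over all genes were 0.678% and 0.367%. Of the 37, 1 was positive and 5 were negative at an unadjusted p below 0.05, and DESeq2 called 1 and 2. Their medians were -0.32 under the c-Myc inhibitor and -0.28 under alpha-amanitin, beside -0.01 and 0.00 for all genes, and 6 of them had an empty group. Duxf3, a copy of the Dux activator of early embryonic genes, was 0.213 to 8.30 CPM in c-Myc controls (median 4.96) and 0 in all 7 libraries with the inhibitor. The control mean was 237-fold above the level of 3 counts over those 7 libraries, again a limit from counting alone. The amanitin series held 3.44, 4.00, 0 and 0 CPM in controls and 2.44, 0.781, 0 and 0 in treated embryos, and the difference was not called (adjusted p = 0.091). Usp17lc, a deubiquitinase of a repeated family, held a median of 5.86 CPM in c-Myc controls (2.07 to 12.8) and 0.127 with the inhibitor (0 to 3.20). In the amanitin series it was 46.3, 33.1, 9.51 and 2.59 CPM in controls and 1.63, 0, 0 and 0 CPM in treated embryos, and its difference of 2.44 had a 95% interval of -1.20 to 6.08. Duxf3, Usp17lc and Zscan4d belong to families of near-identical copies whose reads the counting could split. Klf17, abundant in all groups, had a difference of 0.10 (-0.21 to 0.40).

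The genes most directly tied to c-Myc gave no call, like nearly all genes tested. Myc and Mycn themselves were too low to be tested: Myc had a highest value of 0.431 CPM in c-Myc controls, 2.76 CPM in a single amanitin control and 0 in all treated libraries. Max held medians of 202 and 200 CPM in the c-Myc series, and its difference was 0.11 (95% interval -0.30 to 0.52). Among 60 MYC targets, edgeR called 0 (1 positive and 8 negative at an unadjusted p below 0.05, and 0 and 2 by DESeq2), and the median was 0.04. Among 24 members of the MYC network it called 0 (3 and 2 unadjusted, 0 and 0 by DESeq2). Of all 15790 genes, 1069 were positive and 1659 negative unadjusted, and 0.678% and 0.367% were called by edgeR. With such shares, 0 calls does not set lists of this size apart from other genes. The intervals lay within 1 log2 unit of 0 for 19 of the 60 targets and 10 of the 24 network genes, and for the rest a 2-fold gap could not be told from none.

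Among the targets, Npm1, a nucleolar chaperone, had 0.16 (-0.14 to 0.45), and Odc1, the first enzyme of polyamine synthesis, 0.12 (-0.51 to 0.75). Ncl, the nucleolar protein nucleolin, had -0.29 (-0.74 to 0.17), and Srm, spermidine synthase, 1.33 (-0.48 to 3.14). Ribosome biogenesis factors held 0 calls of 64 by edgeR (1 positive and 11 negative unadjusted, 0 and 2 by DESeq2). Over all 15790 genes, edgeR called 0.678% and 0.367%, and 1069 and 1659 met the unadjusted threshold. Ribosomal protein genes held 0 of 76 (1 and 2 unadjusted, 0 and 0 by DESeq2), with a median of 0.29 under each inhibitor, and 7 of the 76 intervals lay within 1 log2 unit of 0.

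The E-box share at called genes was set beside that of all genes. The letters CACGTG were found in the 300-base window around the start site, 250 bases before to 50 after, of 5 of the 82 positive calls with a RefSeq window (6.10%): Arhgef16, Nptn, Scap, Tbc1d14 and Trappc10. The shares were 10.0% (4 of 40) for negative calls, 11.3% (1234 of 10937) for all genes tested and 7.15% (2349 of 32851) for all windows in the table. Nptn, with both of its E-boxes shown above, had medians of 60.4 CPM in c-Myc controls (37.9 to 67.5) and 126 with the inhibitor (116 to 188), and a difference of 1.95 (SE 0.39, adjusted p = 0.00851). Scap had 185 to 326 against 422 to 480 CPM and a difference of 0.95 (SE 0.22, adjusted p = 0.0258). The stress element was found in 1 of 40 negative calls (Hspa5), 0 of 82 positive calls, 21 of 10937 genes tested (0.192%) and 39 of 32851 windows (0.119%). A match describes letters only, and binding was not measured.

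As background for the remaining lists, the edgeR shares over all genes tested were 0.678% positive and 0.367% negative. DNA replication and G1/S genes held 1 positive call of 66, Orc6, a subunit of the origin recognition complex, with 1.01 (SE 0.25, adjusted p = 0.0432). Chromatin regulators held 2 of 55, Tet3, which oxidises methylated DNA in the zygote, with 0.62 (SE 0.12, adjusted p = 0.00586), and Kmt2d, a histone H3 methyltransferase, with 0.62 (SE 0.16, adjusted p = 0.0497). With 1 library left out, Orc6 was called in 5 of 22 fits and Kmt2d in 4, with highest adjusted p of 0.0786 and 0.0944. Tet3 was among the most abundant of all called genes, with medians of 3892 and 4937 CPM in the c-Myc series and 4304, 3988, 3966 and 4356 against 3423, 3769, 2882 and 3041 CPM in the amanitin series. Its amanitin groups did not overlap, and its c-Myc groups overlapped (3588 to 4542 and 4338 to 5394 CPM). Replication-dependent histones held 0 calls of 42 by edgeR (7 positive and 1 negative unadjusted, 2 and 0 by DESeq2) with a median difference of 0.76, or 0.81 with members of an empty group set to their bound, and 35 of the 42 lay above 0. Their reads can be split among near-identical copies, and 8 of the 42 had an empty group. Over all 15790 genes tested, 1069 were positive and 1659 negative unadjusted, and DESeq2 called 413 and 629. Of the same 15790, 7695 had a difference above 0 and 1983 an empty group.

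**Figure D5:**
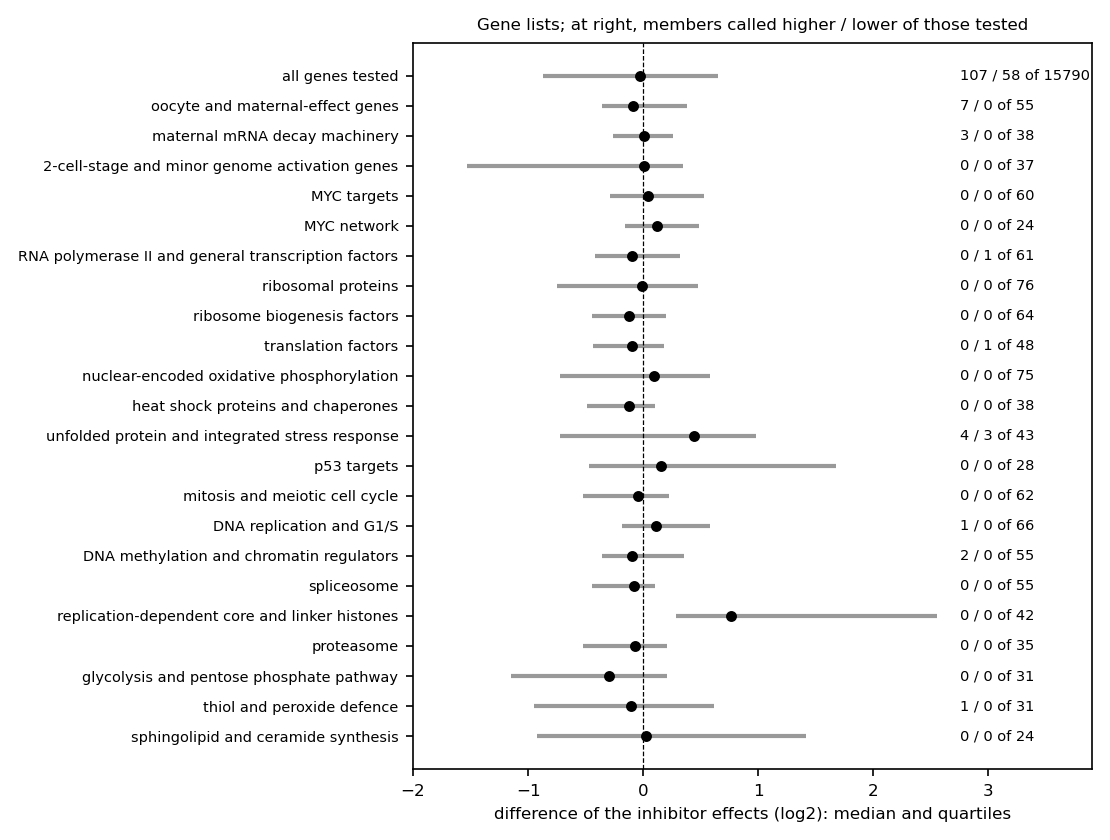
Difference of the inhibitor effects (log2, horizontal axis) for all genes and for each list with at least 20 members tested, with the median (point) and quartiles (line) and the number of positive and negative calls written beside it. The oocyte list (7 and 0) and the stress list (4 and 3) hold the most calls, and the histone list has the highest median (0.76) with 0 calls.

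Positive calls differed from all genes in transcript length as a description, with no test. The longest annotated transcript had a median of 4584 bases among positive calls, 3200 among negative calls and 3048 among all genes tested, and 4134 among the 3756 tested genes averaging 50 CPM or more, to which most positive calls belong in level. Median GC content was 50.7%, 47.8%, 48.8% and 47.9% in the same order. Whether length or GC content had a part in the differences was not tested.

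The precision of the difference decides how far a missing call can be read. The median SE over all genes was 1.15 for the difference, against 0.70 for the c-Myc inhibitor effect and 0.88 for the amanitin effect. Among 2282 genes of at least 100 CPM the median SEs were 0.219, 0.132 and 0.175, and the 95% interval lay within 1 log2 unit of 0 for 1804 of them. Over all 15790 genes this held for 2595 (16.4%), whereas 11339 (71.8%) had an interval wider than 2 log2 units. For most genes the interval therefore did not exclude a 2-fold gap between the inhibitors.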

How the data were processed

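RNA was measured in 26 libraries, of which the 22 from 1-cell embryos were compared, in groups of 7, 7, 4 and 4 taken from the labels. The table the authors deposited holds raw whole-number counts for 55401 Ensembl gene IDs, with 1 column per library. Per the submitters' processing notes, the tools named are cutadapt 1.7.1 and STAR 2.5.0a and the build is GRCm38. For the counting step, the program, strand setting and annotation are not stated in the sources used here, so overlapping, antisense and multicopy genes are uncertain. GENCODE vM21 gave symbols for 55141 IDs, and the other 260 held 0.00563% of the counts.

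Counts were fitted in R 4.3.3 with edgeR 4.0.16 (quasi-likelihood test, TMM scaling, filterByExpr with minimum count 10 and minimum total 15, Benjamini-Hochberg threshold 0.05). One mean per group was fitted, and the difference was a contrast of the 4 means. The SE is the size of the log2 value divided by the root of F. Levels are CPM on TMM-scaled totals for embryos and on raw totals for oocytes. Counting alone puts 3 counts at 0.110 to 0.146 CPM in the first series and 0.0951 to 0.558 in the second, and PCR copies make the true error larger. On simulated counts for 14996 genes of this contrast, 10% of 2-fold and 60% of 4-fold changes were recovered, with 1 false call. The changed genes all had a mean above 10 CPM, so the shares do not hold for lower genes. Each gene was given the same spread in both series, unlike the data (0.555 and 1.07). The simulation therefore cannot tell how many false calls unequal spread would give.

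DESeq2 1.42.0, limma 3.58.1, other scalings and filters, a replicate block and leaving out each library were tried as alternatives. Genes were named by rule: the 10 largest called differences per direction with at least 10 CPM in a group and separated libraries in a series, up to 3 called members per list, genes of the same sign under both inhibitors, and a set list. Results for 2 genes are not reported here. Other called list members, Lrig2, Nptn, Scap and the uncalled stress genes were chosen after their values were seen. The libraries, the 25 lists and the rules were chosen with earlier results of these data known. Lists were described by counts and medians, with no test. Promoter windows came from RefSeq (GRCm38.p6), matched by symbol for 10937 of the 15790 genes.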

Additional observations from a re-analysis of the deposited data

Results flagged for a closer look

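Among 264 combinations of a named gene and a group, 22 held a library far from the others of its group, by Dixon's criterion at the 95% level. The 264 include combinations with too few counts to be tested, so the share flagged among those tested was higher than 22 of 264. Chance alone flags about 1 in 20 of the groups that are tested. Of the 22, 11 fell in c-Myc series controls, 3 in c-Myc inhibitor libraries, 4 in amanitin controls and 4 in alpha-amanitin libraries.

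Among genes with positive differences, Ccnyl1 stood at 67.77 CPM in amanitin control 1, above 49.6 to 51.2 in the others. Fat1 (232.3 CPM, c-Myc control 2) and Slc7a11 (199.2 CPM, c-Myc control 6) were high, and Dse (10.08 CPM, c-Myc control 1), Furin (111.5 CPM, amanitin control 3) and Cnot8 (173.5 CPM, c-Myc control 8) were low.

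Among genes with negative differences, Ccdc66 stood low in c-Myc control 8 (18.6 CPM, others at least 32.2) and high in alpha-amanitin replicate 3 (70.23 CPM, others up to 17.8), the shallowest library. Ddit3 reached 41.36 CPM in c-Myc inhibitor replicate 5, and Eif5 was lowest in amanitin control 4 at 216.2 CPM, just under 228 to 230 in the others.

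Among genes without a called difference, Tubb6 stood high in c-Myc control 8 (226.2 CPM) and alpha-amanitin replicate 1 (263.4 CPM), Atp13a1 in amanitin control 2 (32.35 CPM), and Nlrp14 in c-Myc control 8 (844.9 CPM) and c-Myc inhibitor replicate 4 (716.6 CPM). Mycn had 1.006 CPM in c-Myc control 6, and Usp17lc 3.204 CPM in c-Myc inhibitor replicate 3. Npm1 had 776.2 CPM in alpha-amanitin replicate 3, and Srm (19.5 CPM) and Odc1 (112.0 CPM) were high in c-Myc control 2. The mitochondrial transcript mt-Cytb was at 201.1 CPM in c-Myc control 2, against 1179 to 1838 in the other controls, and at 1371 CPM in alpha-amanitin replicate 2, against 1979 to 2040.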

How the results depend on the processing

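No called difference changed sign under any alternative. The 107 positive and 58 negative calls became 413 and 629 with DESeq2, 15 and 0 with limma voom and weights per group, 59 and 25 with limma voom fitted to each series alone, and 234 and 209 without a filter on low counts. Negative calls became 36 at a mean of at least 10 CPM, 90 with the oocytes in the fit and 25 with a count in at least 2 libraries of each group, a filter added after the data were seen. Of the 107 and 58 main calls, DESeq2 kept 107 and 57, and limma voom on each series alone kept 46 and 9. At a mean of at least 10 CPM, 18 of the 58 could be tested, and all of those were called. For the c-Myc inhibitor alone (234 and 86), fitting its series alone gave 887 and 531 and DESeq2 360 and 192. For alpha-amanitin alone (52 and 30), the same settings gave 0 and 0, and 821 and 443. With 1 library left out, counts ran from 67 to 167 and 25 to 113 for the difference, 176 to 353 and 54 to 166 for the c-Myc inhibitor, and 21 to 104 and 12 to 75 for alpha-amanitin. The main fit did not pair libraries by replicate number, and the labels do not say whether same-numbered samples were collected together. Same-numbered libraries correlated at -0.014 to 0.035 in their deviations from the group means. A correlation over all genes, most of them at low counts, cannot settle whether the samples were paired. A replicate block gave 41 and 3 calls for the difference, 124 and 14 for the c-Myc inhibitor and 3 and 3 for alpha-amanitin. Of 34 called genes named by rule, 22 were called in every fit that left out 1 library. Of 32 uncalled ones, 8 changed sign under some alternative. The cause of these shifts was not tested. Wide intervals at low counts limit what a missing call can show.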

Other observations

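Several further positive differences, chosen here after their values were seen, fell on abundant transcripts for cell contact and signalling. Lamc1 and Lamb1, chains of the basement membrane protein laminin, had differences of 2.12 (SE 0.25, edgeR adjusted p = 6.58e-06) and 1.12 (SE 0.18, adjusted p = 0.000739). Lamb1 held 462 to 550 CPM in c-Myc controls and 885 to 1337 CPM with the c-Myc inhibitor, and 629, 473, 391.7 and 378 against 505, 428, 418 and 424 CPM in the amanitin series, where the groups overlapped. Cdh1, the adhesion protein E-cadherin, had 1.34 (SE 0.30, adjusted p = 0.022), and Jag1, a Notch ligand, 1.27 (SE 0.17, adjusted p = 4.54e-05). Jag1 held 303 to 461 CPM in c-Myc controls and 705 to 920 CPM with the inhibitor. No enrichment of such genes was tested.

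Trib2, a pseudokinase, reached its positive difference of 1.87 (SE 0.45, adjusted p = 0.0344) in another way. It held 21.9 to 37.1 CPM in c-Myc controls and 13.2 to 26.4 CPM with the inhibitor, and 72.9, 39.1, 36.1 and 60.0 CPM in amanitin controls against 13.6, 7.13, 8.33 and 12.9 CPM with alpha-amanitin. Only the amanitin groups stood apart, and both fitted effects were negative. Among the positive calls, 106 of 107 had a positive effect under the c-Myc inhibitor, and Trib2 is the exception.

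The lists of heat shock proteins (38 tested), p53 targets (28), mitosis and meiotic cell cycle (62), spliceosome (55), proteasome (35), glycolysis and pentose phosphate pathway (31), nuclear-encoded oxidative phosphorylation (75), mitochondrially encoded mRNAs (10) and sphingolipid synthesis (24) held 0 calls by edgeR. At an unadjusted p below 0.05 their positive and negative members numbered, in that order, 0 and 6, 2 and 2, 7 and 11, 0 and 6, 0 and 1, 2 and 3, 4 and 7, 3 and 1, and 4 and 1. By DESeq2 they numbered 0 and 2, 1 and 0, 1 and 5, 0 and 1, 0 and 2, 1 and 1, 3 and 1, 1 and 1, and 1 and 0. The cumulus list (9 tested) and the sperm list (5 tested) also held 0, with 1 and 2 unadjusted in each and 0 and 1 by DESeq2 in each. Over all 15790 genes the counts were 107 and 58 called by edgeR, 1069 and 1659 unadjusted, and 413 and 629 by DESeq2. Taldo1, transaldolase of the pentose phosphate pathway, had a difference of 4.06 (SE 1.14) that missed the threshold (adjusted p = 0.0727), with 2.70 to 13.7 CPM in c-Myc controls and 31.5 to 56.7 CPM with the inhibitor.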
